A study of Mus musculus with 3 samples.

Results

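The cytosolic ribosomal protein genes of the mouse were examined in single-cell RNA-seq of healing skin wounds. Members were chosen by name: symbols that begin with *Rpl* or *Rps* followed by a digit, together with *Rplp0*, *Rplp1*, *Rplp2* and *Rpsa*, without pseudogene names containing -ps and without the Rps6k kinases. Of 32285 genes in the count files, 86 fitted the names and 84 of these held at least 100 UMIs (unique molecular identifiers, each standing for 1 captured RNA molecule) over the 3 libraries. The limit removed *Rpl3l* (80 UMIs) and *Rpl10l* (0 UMIs), and the member closest to it, *Rps19bp1*, held 4646 UMIs. By name, 50 members belong to the large subunit and 33 to the small subunit. *Rps19bp1* entered through its name alone, because it encodes a protein that binds the ribosomal protein Rps19 rather than a part of the ribosome.

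The ribosome translates mRNA in the cytosol and is built from a small subunit, which reads the message, and a large subunit, which joins the amino acids. Each subunit holds ribosomal RNA and a set of ribosomal proteins. Most of these are present as a single copy in each ribosome, the P-stalk proteins Rplp1 and Rplp2 being an exception, and most come from a single expressed gene. Their mRNAs are among the most abundant in dividing and secretory cells, and many begin with a run of pyrimidines at the 5′ end through which mTOR signalling sets their translation. A few members have a second gene, a paralogue, that encodes a near copy of the protein, such as *Rpl22l1* for *Rpl22* and *Rpl39l* for *Rpl39*.

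The groups were wounds on the back skin of wild-type C57BL/6J mice, adult males by the study's methods, taken 3, 7 and 14 days after injury. The GEO design text calls the injury incisional, while the study's methods describe full-thickness wounds made with a punch. Each day was 1 library from pooled wound tissue, with no unwounded or untreated control among the samples used here, so a difference between days and a difference between libraries cannot be told apart and no test was made between days. The libraries held 5158, 22924 and 16611 cell barcodes and 38133650, 120940799 and 112713257 UMIs on Days 3, 7 and 14, and 43, 19 and 111 barcodes were shared between Days 3 and 7, Days 3 and 14 and Days 7 and 14. Cells were clustered without the family, and clusters were named by standard markers ("X-like"). *Gm42418*, a gene model known to collect reads of ribosomal RNA, took 3.60%, 11.7% and 6.42% of the UMIs on Days 3, 7 and 14, so each share below is given over all UMIs and, where it matters, also over a total that leaves out *Gm42418* and the mitochondrial genes.

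The family supplied a similar part of the summed UMIs on each day, and the order of the days depended on the total used. In the 4360, 19590 and 13510 cells kept, the family's share of UMIs was 10.5%, 9.87% and 11.3% (Days 3, 7 and 14). The 95% Clopper-Pearson intervals, which cover counting error only, were 10.54 to 10.56%, 9.863 to 9.875% and 11.33 to 11.35%. Over the total without *Gm42418* and mitochondrial genes the shares were 11.4%, 11.6% and 12.4%, so that Day 7 was no longer below Day 3 and Day 14 was still the highest. With each cell weighed equally, the median share was 7.34%, 8.16% and 10.6% and the mean 7.78%, 8.25% and 11.2%. Day 3 was thus the lowest over all single cells, and the days lay further apart than in the sums. Within classes the order of Days 3 and 7 differed. The median was 12.0% and 10.3% in fibroblast-like, 7.61% and 6.87% in macrophage-like and 12.29% and 12.25% in dendritic cell-like cells. In neutrophil-like cells, which were 869 of the 4360 cells on Day 3, it was 1.62% and 2.11%. The part of the class mix in the order over all cells was not tested. The small subunit supplied 44.5%, 44.9% and 44.8% of the family's UMIs on the 3 days.

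The family's UMIs were spread over all members. *Rpl41*, which encodes the smallest protein of the large subunit, held the most, with 1225429 UMIs or 4.30% of the family. *Rplp1* of the P-stalk, the flexible arm of the large subunit that recruits translation factors, followed with 831752 UMIs, and the small-subunit gene *Rps12* with 826215. *Rpl37a* of the large subunit was also among the most counted, with 677177 UMIs. At the other end stood *Rps19bp1* and the paralogues *Rpl39l* (9286 UMIs), *Rpl7l1* (9467), *Rps27rt* (19681) and *Rpl22l1* (65613). Counts at the 3′ end carry no factor for transcript length. Many members have processed pseudogenes of near-identical sequence, and no source used here says how reads that match several copies were counted, so the order of single members is uncertain.

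The cell classes ranged more widely in the family's share than the days did over all kept cells. Within some classes the days also lay far apart. Neutrophil-like cells, short-lived granulocytes, stood lowest, with 1.81% of UMIs on Day 3 (869 cells) and 2.49% on Day 7 (1631 cells). The epithelial cell-like cells of Day 14, keratinocytes that renew the epidermis by their markers, held the most of the named classes, 19.3% (705 cells). Cells that could not be named held 22.9% on Day 3, from 103 cells with a median of 882 UMIs, and 6.96% and 9.74% on Days 7 and 14. *Gm42418* was 36.7% of their UMIs on Day 7. Without it and the mitochondrial genes they held 24.7%, 11.6% and 11.3%, so that the order of Days 7 and 14 turned. Dendritic cell-like cells, which present antigen, held 12.4%, 12.6% and 18.0% on Days 3, 7 and 14, from 222, 1194 and 539 cells. The cluster led by *Cd209a* was 72.5%, 66.3% and 77.6% of these cells, and with finer clusters the matching cluster could not be named. With coarser clusters, the cluster of 2292 cells that had *Cd209a* among its leading genes could not be named either. T cell-like cells held 11.0% on Day 7 and 15.8% on Day 14, and endothelial cell-like cells, which line vessels, 12.4% and 14.0%. In pericyte-like cells, which wrap capillaries, the share was 9.40% on Day 7 and 7.87% on Day 14. Classes with fewer than 50 cells in a library were left out of these values.

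**Figure D1:**
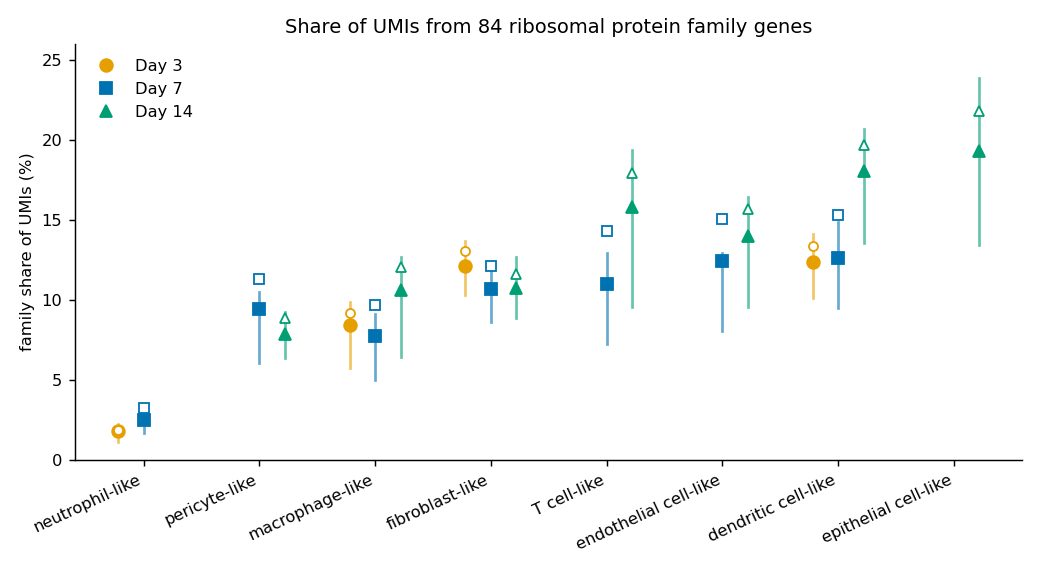
Share of UMIs that came from the 84 members in each cell class (vertical axis, percent) on Day 3 (circles), Day 7 (squares) and Day 14 (triangles). Filled points are UMIs summed over the cells of a class, open points use the total without *Gm42418* and mitochondrial genes, and lines span the quartiles of single cells. Neutrophil-like cells lie at 1.81% and 2.49%, and the epithelial cell-like cells of Day 14 at 19.3%.

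Fibroblast-like cells, which deposit the collagen matrix of the scar, held 12.1%, 10.7% and 10.8% of their UMIs in the family on Days 3, 7 and 14 (406, 5961 and 7437 cells). Macrophage-like cells, which clear debris and release growth signals, held 8.44%, 7.76% and 10.6% (2723, 9541 and 3226 cells). Without *Gm42418* and mitochondrial genes the shares were 13.03%, 12.1% and 11.6% in fibroblast-like and 9.16%, 9.68% and 12.0% in macrophage-like cells, so that in both classes the order of a pair of days turned. The fibroblast-like share was therefore higher by 0.52 on the log2 scale on Day 3 and by 0.46 on Day 7, and by only 0.02 on Day 14. Leaving out *Gm42418* and mitochondrial genes gave log2 ratios of 0.51, 0.32 and -0.05, so the sign on Day 14 followed the total. Single cells of the classes overlapped: on Day 7 the quartiles of the share were 8.63 and 12.2% in fibroblast-like and 4.97 and 9.11% in macrophage-like cells. Depth differed between the classes, with medians of 44340.5, 10296 and 9622 UMIs per fibroblast-like cell against 4067, 2537 and 3538.5 per macrophage-like cell. Among cells of 2000 to 10000 UMIs the log2 ratios were 1.09, 0.35 and 0.07. The median fibroblast-like cell of Day 3 lay far above this window, so the first ratio rests on the shallow cells of that class. Across single macrophage-like cells the share went up with depth, with Spearman's rho of 0.29, 0.33 and 0.35, and down with the *Gm42418* share, with rho of -0.34, -0.32 and -0.62. Across fibroblast-like cells rho with depth was 0.11, 0.18 and -0.065, and with the *Gm42418* share -0.19, -0.32 and -0.33. These correlations are over cells of 1 library each and share its depth, and the part of depth or *Gm42418* in the class difference was not tested.

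Within the macrophage-like class the share depended on the cluster. Macrophage-like cells led by *Retnla* and *Lyz1* held 10.7% on Day 7 and 14.2% on Day 14, those led by *Cx3cr1* and *Ly6c2* 10.1% and 13.2%, and the cycling cells led by *Hist1h1b* and *Top2a* 10.2% and 13.2%. The clusters led by *Lyve1* and *Cd163* and by *Ccl8* and *Slamf7* were lower on both days, at 6.13% and 8.17% and at 7.28% and 8.55%. A shallow macrophage-like cluster led by *Gm26917*, with a median of 849 UMIs and 28.2% and 22.8% of its UMIs in *Gm42418*, was at 5.42% and 8.63%. Over all UMIs this was the lowest Day 7 share and the largest log2 ratio (0.67) of the class. Over the total without *Gm42418* and mitochondrial genes this cluster was at 8.01% and 11.8%. The cluster led by *Lyve1* and *Cd163* was then lower, at 7.68% and 9.50%. A single macrophage-like cluster of those with 50 cells on both days, led by *Cd36* and *Mmp12*, was lower on Day 14, at 7.14% and 6.60%. The make-up of the class also differed: the cluster led by *Retnla* and *Lyz1* was 4.26% of the macrophage-like cells on Day 7 and 17.0% on Day 14, while the cluster led by *Cd36* and *Mmp12* was 32.6% and 2.70%.

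**Figure D2:**
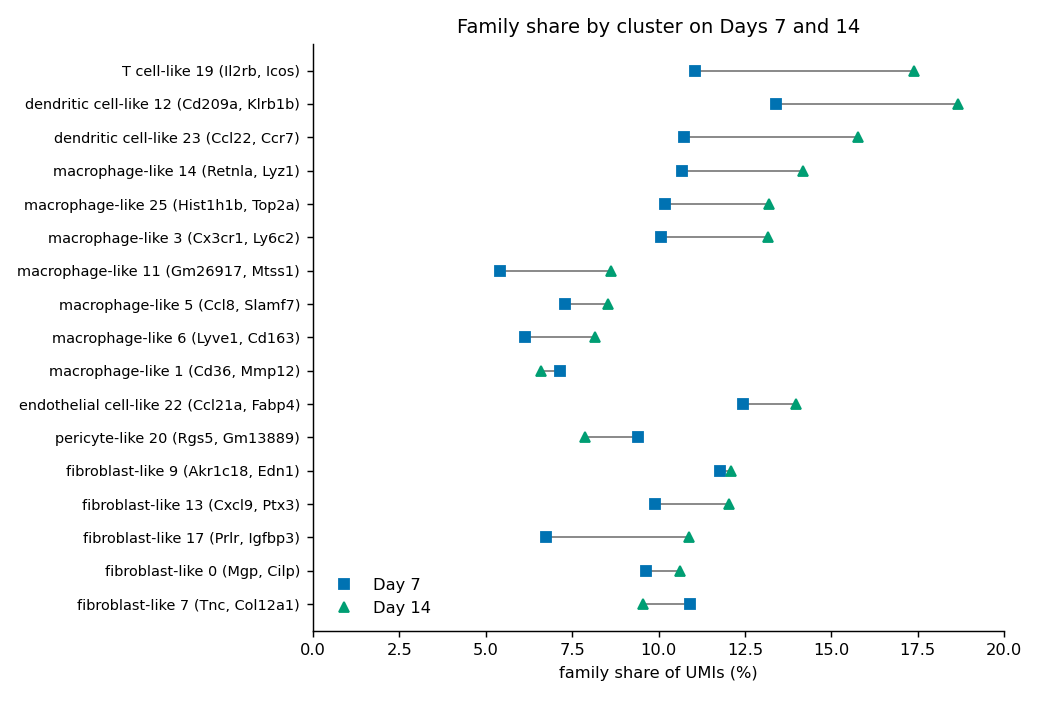
Family share of UMIs (horizontal axis, percent) on Day 7 (squares) and Day 14 (triangles) in each named cluster with at least 50 cells on both days, with its 2 leading genes. The clusters of T cell-like, dendritic cell-like and endothelial cell-like cells and 6 of the 7 macrophage-like clusters lie higher on Day 14, and the pericyte-like cluster and the fibroblast-like cluster led by *Tnc* lie lower.

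The dendritic cell-like clusters led by *Cd209a* and by *Ccl22* were at 13.4% and 10.8% on Day 7 and at 18.6% and 15.8% on Day 14. Of the fibroblast-like clusters, the one led by *Mgp* and *Cilp* held 9.62% on Day 7 and 10.6% on Day 14, and the one led by *Akr1c18* and *Edn1* 11.8% and 12.1%. For the latter the order turned over the total without *Gm42418* and mitochondrial genes, at 13.7% and 13.01%, and for the former the log2 ratio of 0.14 became 0.02. The clusters led by *Cxcl9* and by *Prlr* were at 9.91% and 6.76% on Day 7 and at 12.0% and 10.9% on Day 14. The *Prlr* cluster had 63 cells on Day 7 and met only 5 of the 8 fibroblast markers. Its leading genes included *Bmp4*, which the study used to mark mesenchymal cells apart from fibroblasts. Fibroblast-like cells led by *Tnc* and *Col12a1* were lower on Day 14, with 10.9% on Day 7 (1594 cells) and 9.56% on Day 14 (77 cells). On Day 3 the cycling fibroblast-like cluster led by *Ube2c* held 12.1%, and the cluster led by *Saa3* and *Cxcl5*, in which 57.6% of the Day 3 fibroblast-like cells lay, held 12.2%. Over the total without *Gm42418* and mitochondrial genes, the other named clusters kept their order of Days 7 and 14, with the log2 ratio going to 0.46 from 0.65 in the T cell-like and to 0.29 from 0.41 in the *Retnla* cluster.

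Fibroblast-like and macrophage-like cells were then compared gene by gene, with the 3 libraries as blocks, by edgeR's quasi-likelihood test with Benjamini-Hochberg adjustment over all 13656 genes tested. All 84 members were tested. Of these, 5 were higher in fibroblast-like cells, which is 5.95% of the members beside 27.0% of all genes, and 0 were lower beside 24.7% of all genes. At an unadjusted p under 0.05, 11 members (13.1%) were higher and 1 (1.19%) was lower, beside 30.3% and 28.7% of all genes. DESeq2 called 18 members (21.4%) higher and 1 lower, beside 28.8% and 25.5% of all genes. The median log2 difference (fibroblast-like minus macrophage-like) was 0.28 over the members and 0.02 over all genes tested. It was above 0 for 71 members, 45 of 50 in the large subunit and 26 of 33 in the small subunit, beside 6908 of the 13656 genes tested. The 3 libraries come from different days, so the spread between them holds the differences between days as well.

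The 5 members that passed were *Rpl39l*, *Rpl22l1*, *Rps2*, *Rplp0* and *Rpl15*. *Rpl39l*, the paralogue of the exit-tunnel protein gene *Rpl39*, stood at 44.1, 44.3 and 55.4 CPM (UMIs scaled to a fixed total) in fibroblast-like cells on Days 3, 7 and 14 and at 0.818, 2.97 and 2.74 CPM in macrophage-like cells. The groups did not overlap, and the log2 difference was 4.48 (SE 0.37, adjusted p = 0.00165). *Rpl22l1*, the paralogue of *Rpl22*, stood at 530.3, 247 and 273 CPM against 149.5, 93.9 and 123 CPM. The lowest fibroblast-like value was above the highest macrophage-like value, with a log2 difference of 1.38 (SE 0.19, adjusted p = 0.0043). *Rps2*, a protein of the mRNA entry site of the small subunit, stood at 2291, 2156 and 2595 CPM against 679, 832 and 1465 CPM, with a log2 difference of 1.24 (SE 0.25, adjusted p = 0.0127). In *Rps2* the macrophage-like value of Day 14 was the nearest to the fibroblast-like values.

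*Rplp0*, the base of the P-stalk, stood at 1485, 1490 and 1645 CPM in fibroblast-like cells and 850.4, 758 and 942 CPM in macrophage-like cells, with a log2 difference of 0.79 (SE 0.22, adjusted p = 0.035). *Rpl15*, a protein of the large subunit core, stood at 927, 988 and 1129 CPM against 478, 448 and 796 CPM, with a log2 difference of 0.79 (SE 0.23, adjusted p = 0.0379). Both lost the call in cells of 2000 to 10000 UMIs and without the Day 7 or the Day 14 library, where the adjusted p was 0.117, 0.216 and 0.144 for *Rplp0* and 0.139, 0.252 and 0.0871 for *Rpl15*. *Rps2* lost it in cells of 2000 to 10000 UMIs and without the Day 7 library, with adjusted p of 0.0609 and 0.0809. Without the library as a block 2 members passed, *Rpl39l* and *Rpl22l1*, and the adjusted p of *Rps2*, *Rplp0* and *Rpl15* was 0.0529, 0.0618 and 0.131. With no filter on low counts *Rplp0* and *Rpl15* did not pass (adjusted p = 0.0576 and 0.054), and with the class set cell by cell *Rpl15* did not (adjusted p = 0.0535). *Rpl39l* and *Rpl22l1* passed in every fit made, with log2 differences of 4.06 to 4.90 and 1.21 to 1.47.

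**Figure D3:**
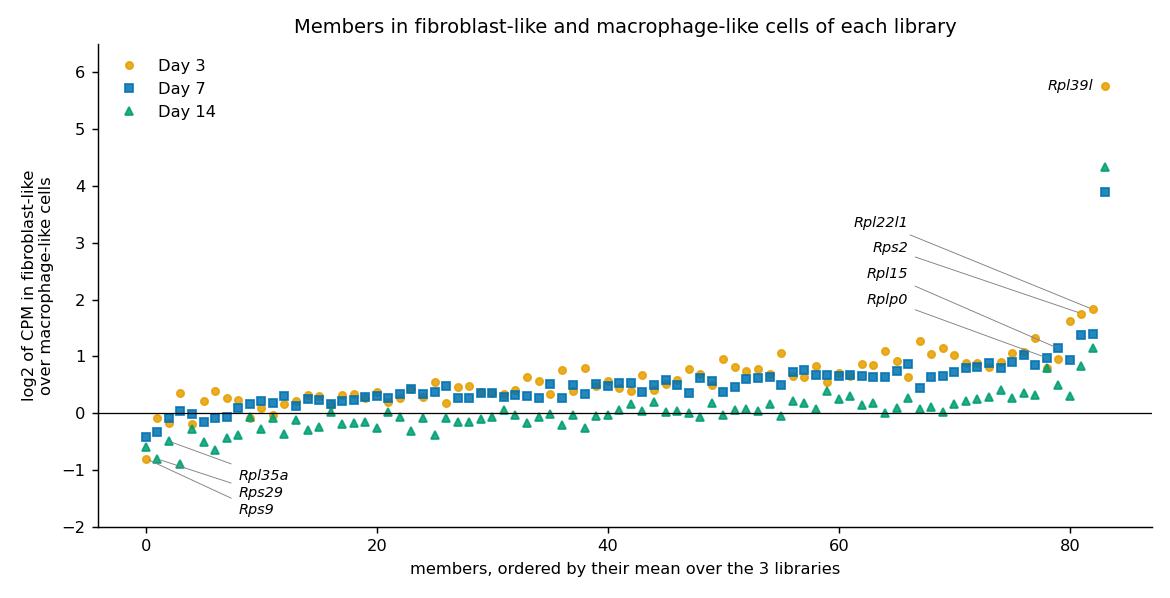
The log2 ratio of CPM in fibroblast-like over macrophage-like cells (vertical axis) for each of the 84 members, ordered along the horizontal axis by the mean over the 3 libraries. Circles, squares and triangles are Days 3, 7 and 14. The 5 members that passed the test and the 3 with the lowest mean are named. *Rpl39l* lies apart at 5.75, 3.90 and 4.34, and most triangles of Day 14 lie below the other points.

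edgeR called no member lower, and DESeq2 called 1. The lowest difference fitted by edgeR was that of *Rps9*, a protein of the small subunit body, with 2040, 1476 and 1449 CPM in fibroblast-like and 3551, 1977 and 2192 CPM in macrophage-like cells and a log2 difference of -0.68 (SE 0.25, adjusted p = 0.0744). Its value was lower in fibroblast-like cells in each of the libraries. *Rps29* and *Rpl35a* came next, at -0.48 (adjusted p = 0.145) and -0.33 (adjusted p = 0.265). Within single libraries, 78 members were above 0 on Day 3, 77 on Day 7 and 42 on Day 14, with medians of 0.56, 0.48 and 0.00 on the log2 scale, 42 members being above 0 in all 3 libraries and 4 below 0 in all 3. The matching counts over all genes are not given here, so these counts describe the members alone.

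The paralogue pairs were then followed through all cell classes, as a description. *Rpl39l* and *Rpl39* both code for a short basic protein, and their coding sequences of 156 bases (GENCODE M21, mouse build GRCm38) are shown because the member with the largest difference between the classes is the near copy of another member. They differ at 23 bases, which are in capitals in *Rpl39l*, so that 85.3% of the bases are the same. *Rpl39* lies at chrX:37082520-37085402 on the minus strand and *Rpl39l* at chr16:10170226-10174911 on the plus strand.
Rpl39: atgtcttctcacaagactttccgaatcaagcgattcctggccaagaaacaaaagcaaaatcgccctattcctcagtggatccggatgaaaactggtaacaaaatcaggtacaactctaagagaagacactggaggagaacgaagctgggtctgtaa
Rpl39l: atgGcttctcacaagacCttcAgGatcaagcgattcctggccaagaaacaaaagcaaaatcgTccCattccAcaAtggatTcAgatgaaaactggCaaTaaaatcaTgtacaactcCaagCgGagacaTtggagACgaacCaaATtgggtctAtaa

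*Rpl39l* made up 2.61% of the UMIs of the pair in fibroblast-like cells on Day 3 (95% Clopper-Pearson interval 2.44 to 2.79%), 2.90% on Day 7 (2.80 to 3.01%) and 4.05% on Day 14 (3.93 to 4.18%). Pericyte-like cells, the other mesenchymal class, held 4.35% on Day 7 (3.40 to 5.47%) and 2.68% on Day 14 (1.99 to 3.53%), near the fibroblast-like values. In macrophage-like cells the share was 0.0888%, 0.319% and 0.22%, from 10, 80 and 34 UMIs of *Rpl39l*. The classes of dendritic, T, endothelial and epithelial cells held between 0.0376 and 0.634%. Neutrophil-like cells had few UMIs of the pair, with a share of 0.375% on Day 3 from 1 UMI of *Rpl39l* and of 3.17% on Day 7 (1.70 to 5.36%) from 13, the latter inside the range of the fibroblast-like values. Pooled over the libraries, the fibroblast-like cluster led by *Igfbp2* and *Wfdc12* held 6.79% of the pair and the cluster led by *Saa3* and *Cxcl5* 2.32%. The first had 1459 of its 1494 cells on Day 14 and the second 1982 of its 2253 on Day 7, so cluster and day are mixed in these values. Free RNA from fibroblasts can enter any droplet: the 8 fibroblast markers together reached 0.621%, 3.30% and 3.82% of their fibroblast-like level in macrophage-like cells on Days 3, 7 and 14, and *Rpl39l* 1.85%, 6.70% and 4.94%. The part of such RNA in the macrophage-like values of *Rpl39l* was not tested.

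*Rpl22l1* was counted in each of the 8 classes for which the pairs were read. Its share of the pair with *Rpl22* was 39.5% (38.95 to 40.1%) in fibroblast-like cells on Day 3 and 25.01% and 24.8% on Days 7 and 14. In macrophage-like cells it was 20.2% on Day 3, 13.2% on Day 7 and 11.9% on Day 14, and in dendritic cell-like cells 18.4%, 11.2% and 10.1%, so that Day 3 was the highest in all 3 classes measured on each day. Pericyte-like cells held 22.7% on Day 7 (20.3 to 25.3%) and 32.0% on Day 14 (29.6 to 34.5%), and neutrophil-like cells 34.5% on Day 3 and 22.5% on Day 7, from 49 and 55 UMIs of *Rpl22l1*. The coding sequences of *Rpl22l1* and *Rpl22* are 71.2% the same over their aligned bases.

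*Rps27l*, a paralogue known as a target of p53, was lowest on Day 3 in the same 3 classes. Its share of the pair with *Rps27* was 15.8%, 24.4% and 28.9% in macrophage-like cells on Days 3, 7 and 14 and 10.8%, 22.6% and 33.2% in dendritic cell-like cells, and 19.6%, 23.0% and 24.98% in fibroblast-like cells. *Rpl36al* held between 35.4 and 36.7% of its pair with *Rpl36a* in fibroblast-like cells and between 43.6 and 50.3% in macrophage-like cells. *Rpl7l1*, which is known to act in the assembly of ribosomes, stayed between 1.97 and 3.85% of its pair with *Rpl7* in all classes but neutrophil-like cells. *Rps27rt* has a coding sequence that is 100% identical to that of *Rps27*, over 255 bases, so reads of the 2 genes may not be told apart and its values are uncertain.

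**Figure D4:**
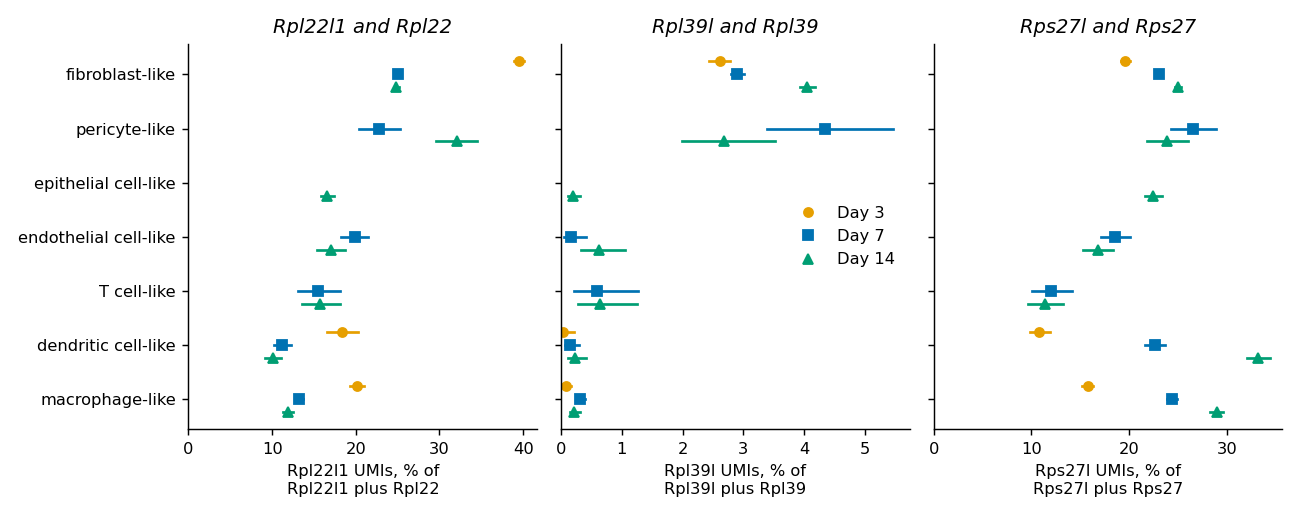
UMIs of *Rpl22l1*, *Rpl39l* and *Rps27l* as a percentage of the pair with *Rpl22*, *Rpl39* and *Rps27* (horizontal axes) in 7 cell classes on Day 3 (circles), Day 7 (squares) and Day 14 (triangles). Lines are 95% Clopper-Pearson intervals and cover counting error only. *Rpl39l* is at 2.61 to 4.05% in fibroblast-like cells and at 0.319% or less in macrophage-like cells.

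Between Days 3 and 7 most members lay within 1.5-fold in both classes. In fibroblast-like cells 3 of 81 members that passed the limits (50 CPM in 1 library and 10 UMIs in each) were more than 1.5-fold higher on Day 7 and 8 were more than 1.5-fold lower, which is 3.7% and 9.88% beside 11.2% and 28.6% of all genes. In macrophage-like cells 4 were higher and 5 lower, or 4.94% and 6.17% beside 5.24% and 24.8%. The median log2 ratio of Day 7 over Day 3 was -0.15 over the members and -0.27 over all genes in fibroblast-like cells, and -0.03 and -0.25 in macrophage-like cells. These directions depended on the total: without the 50 most abundant genes outside the family the members' medians were 0.083 and 0.25, beside -0.00022 and 0.063 over all genes. In fibroblast-like cells 3 members (3.61%) were then lower, beside 15.5% of all genes, and in macrophage-like cells 12 (14.6%) were higher and 0 lower, beside 13.5% and 10.1%. Without *Gm42418* and mitochondrial genes the macrophage-like median was 0.17, beside -0.016 over all genes, with 1 member (1.23%) lower beside 13.4%. Sums over single libraries carry counting error only, so no p-value is given for days.

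The clusters that made up each class differed between the days. The cycling cluster led by *Ube2c* was 40.4%, 6.91% and 0.578% of the fibroblast-like cells (Days 3, 7 and 14). The clusters led by *Saa3* and by *Tnc* were 33.2% and 26.7% on Day 7 and 0.498% and 1.04% on Day 14, when those led by *Mgp* and by *Igfbp2* were 43.4% and 19.6%. Of the macrophage-like cells, the cluster led by *Arg1* and *Rsad2* was 77.4% on Day 3 and 7.06% on Day 7. The part of this make-up in the differences between days was not tested.

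The lower members in fibroblast-like cells included *Rpsa* and P-stalk genes. *Rpl22l1* was lowest, at 530.3 CPM on Day 3 and 247 on Day 7, a log2 ratio of -1.10 (95% interval for counting error -1.14 to -1.07). *Rpsa*, the small-subunit protein that also serves as a laminin receptor, was at 2458 and 1316 CPM, a log2 ratio of -0.90 (-0.92 to -0.89). *Rplp2* was at 2194 and 1186 CPM (-0.89) and *Rplp1* at 5545 and 3240 CPM (-0.77). *Rplp0*, to which both bind, was at 1485 and 1490 CPM (0.01). The RNAs of the stalk genes therefore did not share a ratio. In macrophage-like cells *Rpsa* was also among the lowest, at 1363 and 851 CPM (-0.68), with *Rps9* at -0.85 and *Rpl22l1* at -0.67, while *Rplp2* was at -0.52, *Rplp1* at -0.22 and *Rplp0* at -0.17. On Day 14 *Rpsa* stood at 1062 CPM in fibroblast-like and 932 CPM in macrophage-like cells.

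Among the highest ratios of Day 7 over Day 3 were those of *Rps15a* in fibroblast-like cells, at 0.65, and of *Rpl12* in macrophage-like cells, at 0.71. *Rps27rt* had ratios of 1.02 and 0.82 and is counted above, but it passed the limit of 50 CPM only through Day 7, and its partner *Rps27* had ratios of -0.29 and -0.59. *Rps15a*, a small-subunit protein, was at 1480 CPM on Day 3 and 2330 on Day 7 in fibroblast-like cells and at 839 and 1269 CPM in macrophage-like cells. Both classes come from the same libraries.

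Between Days 7 and 14 few members of fibroblast-like cells and many of macrophage-like cells lay past 1.5-fold, a difference that was not tested. In fibroblast-like cells 0 of 82 members were more than 1.5-fold higher and 1 was more than 1.5-fold lower, which is 0% and 1.22% beside 8.35% and 10.5% of all genes. *Rps29* was that member, at 1977 CPM on Day 7 and 1248 CPM on Day 14, a log2 ratio of -0.66 (-0.68 to -0.65), followed by *Rpl35* at -0.58 and *Rpl31* at -0.54. *Rpl9*, *Rpl23* and *Rpl29* of the large subunit were highest, at 0.47, 0.40 and 0.37. The median over the members was 0.01, beside -0.07 over all genes.

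In macrophage-like cells 31 of 81 members, or 38.3%, were more than 1.5-fold higher on Day 14, beside 11.3% of all genes, and 0 were more than 1.5-fold lower beside 9.72%. The median over the members was 0.46 and over all genes 0.00, and 75 of 81 members were above 0, beside 1516 of 3013 genes. Both subunits took part, with medians of 0.44 in the large and 0.55 in the small subunit. Among the highest were *Rpl21* of the large subunit, at 608 CPM on Day 7 and 1172 CPM on Day 14 (log2 ratio 0.95), and *Rpl29*, at 401 and 771 CPM (0.94). *Rps29*, *Rpl35* and *Rps28* were lowest, at -0.19, -0.17 and -0.12. *Rps29* and *Rpl35* were the 2 lowest members in both classes, which share their libraries.

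**Figure D5:**
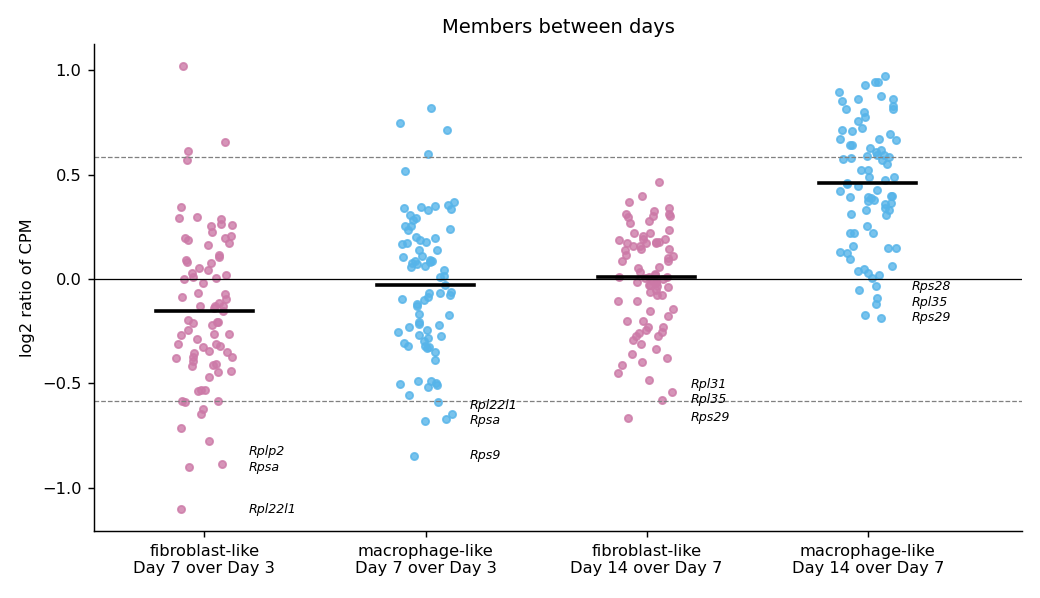
The log2 ratio of CPM between days (vertical axis) for each member that passed the limits, in fibroblast-like (pink) and macrophage-like cells (blue), with the 3 lowest named beside each column. Thick lines are medians and dashed lines mark 1.5-fold. The column for macrophage-like cells from Day 7 to Day 14 has its median at 0.46 and 31 members above the upper dashed line.

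The count in macrophage-like cells depended on the total and on the classes. It was 16 (19.8%, beside 6.78% of all genes) with *Gm42418* and mitochondrial genes left out of the total, *Gm42418* having been 16.6% of the UMIs of this class on Day 7 and 9.51% on Day 14, and 19 (23.2%, beside 6.79%) without the 50 most abundant genes outside the family. The median over all genes was -0.17 under both of these totals. With coarser clusters it was 13 (16%, beside 10.9%), and 800 of the 968 cells of the cluster led by *Retnla* and *Lyz1* then lay in a cluster that could not be named. The log2 ratio of the family sum, Day 14 over Day 7, was 0.45 over all UMIs and 0.32 over the total without *Gm42418* and mitochondrial genes, and in fibroblast-like cells 0.01 and -0.06.

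The family's make-up varied for a few members. Each member's share of the family was followed over 16 sums of a class and a library, without neutrophil-like cells. It was steadiest for *Rpl36*, between 0.538 and 0.679% of the family, and *Rpl37*, between 1.08 and 1.42%. *Rpl39l* varied most, followed by *Rpl22l1*, which ran from 0.0912% in dendritic cell-like cells on Day 14 to 0.438% in fibroblast-like cells on Day 3. *Rps2* ran from 0.805% in macrophage-like cells on Day 3 to 2.94% in pericyte-like cells on Day 14, and *Rps9* from 1.35% in fibroblast-like cells on Day 14 to 4.21% in macrophage-like cells on Day 3. *Rps29* was lowest in epithelial cell-like cells of Day 14, at 0.882%, and highest in macrophage-like cells of Day 7, at 3.20%. The members named here for their spread were chosen after their values were seen.

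Other genes of the translation machinery were read in the same comparisons. Of the 3 genes that encode further ribosome subunits, *Fau*, which yields Rps30 fused to a ubiquitin-like protein, was lower in fibroblast-like cells by 0.92 on the log2 scale (SE 0.24, adjusted p = 0.0272), with 1228, 1333 and 1765 CPM against 2344, 2104 and 3436 CPM. *Rack1*, a scaffold on the small subunit, did not pass, at 0.10 (adjusted p = 0.71). Of 78 mitochondrial ribosomal protein genes, 10 were higher and 3 lower in fibroblast-like cells, or 12.8% and 3.85% beside 27.0% and 24.7% of all genes tested. A list of 7 elongation factors and related genes, *Tpt1* and *Eef1e1* among the latter, held 2 that were higher (28.6%) and 0 lower. Of 30 initiation factor genes 1 was higher and 1 lower (3.33% each). Both lists are to be set beside the same shares of all genes. *Eef1a1*, which brings tRNA to the ribosome, and *Eef2*, which moves it along, were at 0.06 and 0.38, and *Tpt1*, the growth-linked protein TCTP, at -0.32, none of which passed.

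Of 35 genes for ribosome biogenesis, 6 were higher and 1 lower in fibroblast-like cells (17.1% and 2.86%, beside 27.0% and 24.7% of all genes), with a median of 0.28, and of 8 genes of RNA polymerase I none passed. The nucleolar genes *Npm1*, *Ncl* and *Fbl* did not pass, at 0.66, -0.06 and -0.34 (adjusted p = 0.103, 0.875 and 0.239). *Npm1* was at 1076, 569 and 479 CPM in fibroblast-like cells on Days 3, 7 and 14, and *Fbl* at 89.7, 62.9 and 55.8 CPM. Of 13 tested genes that control ribosomal protein synthesis, 2 were higher and 3 lower (15.4% and 23.1%), beside the same shares of all genes. They ran from -5.14 to 3.63 on the log2 scale, with a median of -0.36. *Myc*, a transcription factor that drives ribosome production, was higher in fibroblast-like cells by 3.63 (SE 0.36, adjusted p = 0.002), at 318, 126 and 191 CPM against 11.6, 13.7 and 21.0 CPM. *Larp1*, which binds the pyrimidine run of these mRNAs, was at -0.36 (adjusted p = 0.154). Of 8 genes of ribosomal stress and p53 signalling, 0 were higher and 2 lower, the latter being 25% beside 24.7% of all genes.

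Between Days 3 and 7 in fibroblast-like cells, 11 of 30 initiation factor genes (36.7%) and 6 of 13 biogenesis genes that passed the limits (46.2%) were more than 1.5-fold lower on Day 7 and 0 were higher, beside 28.6% and 11.2% of all genes. The cycling cluster was 40.4% of these cells on Day 3 and 6.91% on Day 7, and its part in these counts was not tested. From Day 7 to Day 14 in macrophage-like cells, 2 of 3 further subunit genes, 3 of 8 biogenesis genes and 3 of 27 initiation factor genes (66.7%, 37.5% and 11.1%) were past 1.5-fold higher, beside 11.3% of all genes, and 0 were lower in each of these lists, beside 9.72%. None of 16 mitochondrial ribosomal protein genes passed 1.5-fold there, and their median was 0.24.

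The promoters were read for the pyrimidine start that the family is known for. RefSeq promoter windows of 250 bases before to 50 bases after the annotated start (GRCm38.p6) were found for 64 of the 84 members and for 27025 genes in all. An unbroken run of at least 7 C or T bases, touching the bases from 5 before to 5 after the start on the strand of the gene, was present in 45.3% of the members and 15.7% of all genes. The letters CTTTCC on either strand were in 54.7% of the members' windows and 29.3% of all, and CCGGAAG on either strand, letters found in sites of ETS factors, were in 40.6% and 9.93%. CTTTCC is itself 6 bases of C and T and can overlap the run at the start. These letters are a description of the windows and say nothing of which factor binds.

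Windows of 60 bases, 40 before and 20 after the start, are shown as examples for the 5 members that passed the test and for *Rpl39*. Capitals mark the longest C or T run that touches the bases from 5 before to 5 after the start. The marked run covers the start base itself in *Rpl15* and *Rpl39* and lies beside it in the others. The windows of *Rpl22*, with runs of 1 and 4 bases, are not shown. The median run was 6 bases over the members and 4 over all genes. Run length was not tested against the class difference. The run is 17 bases long in *Rpl15* (chr14:18270967-18271026, minus strand) and 10 in *Rpl22l1* (chr3:28805468-28805527, plus strand). It is 7 in *Rpl39l* (chr16:10170188-10170247, plus strand), 6 in *Rps2* (chr17:24720023-24720082, plus strand), 5 in *Rpl39* (chrX:37085203-37085262, minus strand) and 4 in *Rplp0* (chr5:115559427-115559486, plus strand). For *Rpl15*, *Rpl22l1*, *Rps2*, *Rpl39* and *Rpl39l* the RefSeq start lies inside the gene as GENCODE M21 draws it, so annotated starts differ.
Rpl15: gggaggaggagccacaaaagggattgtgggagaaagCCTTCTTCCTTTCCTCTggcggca
Rpl22l1: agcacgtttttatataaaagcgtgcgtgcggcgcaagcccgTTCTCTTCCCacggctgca
Rpl39l: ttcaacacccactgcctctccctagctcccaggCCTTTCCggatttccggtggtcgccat
Rps2: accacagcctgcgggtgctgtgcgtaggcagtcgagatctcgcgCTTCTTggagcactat
Rpl39: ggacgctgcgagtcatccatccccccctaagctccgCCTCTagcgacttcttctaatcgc
Rplp0: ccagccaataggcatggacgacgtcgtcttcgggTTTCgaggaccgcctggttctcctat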

How the data were processed

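The authors aligned reads with Cell Ranger 6.0.0 to the mouse build mm10, per the labels, and deposited raw UMI counts per gene and barcode for 3 libraries (10x Genomics 3′ chemistry). The gene annotation is not given in the sources used here. Symbols were matched to 32158 of 32285 Ensembl IDs. Barcodes with at least 500 UMIs, 200 genes and at most 10% mitochondrial UMIs were kept, and the 92, 1978 and 962 barcodes most like simulated doublets were removed, a number set from the barcodes per library and not estimated from the data. Ambient RNA was not subtracted. Cells were clustered (2000 variable genes without the family, 30 components, 15 neighbours, Leiden resolution 1, leidenalg 0.10.2), and clusters were named from marker lists.

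UMIs were summed per class and library. Shares have Clopper-Pearson intervals and ratios of 2 libraries exact conditional binomial intervals, at 95%. Fibroblast-like and macrophage-like sums were tested with edgeR 4.0.16 (R 4.3.3), with TMM, filterByExpr, library as a block and an adjusted p under 0.05. Both classes come from each library, which is what pairs them. On simulated data for this comparison, with 13504 genes, 24.5% of 1.5-fold and 89.8% of 2-fold changes were recovered. In the simulation 200 genes changed and the class difference was the same on each day, while the real one differed between days. These rates are therefore not the power of the reported test. SEs are the log2 difference over the root of the F statistic. DESeq2 1.42.0 was an alternative.

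Named genes were the P-stalk genes, *Rpsa*, paralogues and partners, the 5 most and 5 least counted members, the 3 highest and lowest of each comparison, and 11 genes of the other lists. Some genes that this rule names are not reported here. Alternatives changed the total, cell filters, doublets, clusters, scaling, filter and block. The members and lists were chosen with earlier results of these data known. The precision of each value is set by its UMIs.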

Additional observations from a re-analysis of the deposited data

How the results depend on the processing

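Values between days have no replicate, and shares move by more than counting error with most settings. For the family share, log2 of Day 7 over Day 3 was -0.10 as reported, and 0.026, 0.15 and 0.084 without *Gm42418* and mitochondrial genes, without the 50 most abundant other genes and as the mean over cells, so its sign is not fixed. It was -0.081 with at most 5% mitochondrial UMIs and -0.083 with doublets kept. Day 14 over Day 7 was 0.20, and 0.10, 0.17, 0.44, 0.19, 0.20 and 0.20 under those settings and with at most 20% mitochondrial UMIs. Every alternative for Day 14 over Day 7 kept the sign.

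For the share in fibroblast-like over macrophage-like cells, Days 3, 7 and 14 gave log2 values of 0.51, 0.32 and -0.054 without *Gm42418* and mitochondrial genes, 0.57, 0.48 and 0.15 without the 50 most abundant other genes, and 0.59, 0.53 and 0.14 as the mean over cells. They were 0.54, 0.41 and -0.0097 with at most 5% mitochondrial UMIs, 0.54, 0.47 and 0.032 with at most 20%, and 0.53, 0.45 and 0.030 with doublets kept. With classes from each cell's own markers they were 0.50, 0.40 and -0.038, with 2000 to 10000 UMIs 1.09, 0.35 and 0.074, with coarser clusters 0.49 and 0.20 on Days 7 and 14, and with finer clusters 0.028 on Day 14.

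The 5 members called higher (5.95%, beside 27.0% of all genes) became 14 with coarser clusters, 18 with DESeq2, 2 in cells of 2000 to 10000 UMIs, 3 with no filter on low counts, 4 with the class of each cell and no clusters, and 2 with no replicate block, and between 2 and 5 when a library was left out (2 without Day 7, 3 without Day 14). The share of all genes called higher was 27.3%, 28.8%, 18.8%, 18.1%, 26.1% and 23.7% in the first 6 of these settings and 27.5%, 15.9% and 23.3% without Days 3, 7 and 14, above the members' share in each. DESeq2 called 1 lower, and the other fits 0. The cause of these differences was not tested.

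Past 1.5-fold, the 8 members lower on Day 7 in fibroblast-like cells became 5 without *Gm42418* and mitochondrial genes (all genes 24%) and 3 without the 50 most abundant genes (all genes 15.5%), where the median was 0.083. The 1 lower on Day 14 became 3 without *Gm42418* and mitochondrial genes (all genes 13.5%), with a median of -0.063. In macrophage-like cells on Day 7 the 5 lower became 1, 0 and 1 without *Gm42418* and mitochondrial genes, without the 50 most abundant genes and with at most 5% mitochondrial UMIs (all genes 13.4%, 10.1% and 25%), and the 4 higher became 12 without the 50 most abundant genes (all genes 13.5%), while the median was 0.17, 0.25, 0.040 and, with no limit on CPM, 0.012. The 31 higher on Day 14 became 16, 19 and 13 without *Gm42418* and mitochondrial genes, without the 50 most abundant genes and with coarser clusters (all genes 6.78%, 6.79% and 10.9%).

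Day and library cannot be told apart, the epithelial cell-like values rest on Day 14 alone, and *Rpl39l* in macrophage-like cells rests on 10 to 80 UMIs per library.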
